A study of Mus musculus with 10 samples.

Results

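Solute carriers are membrane proteins that move amino acids, sugars, ions, metals, nucleosides and vitamins across the plasma membrane and the membranes of mitochondria, lysosomes and the Golgi. The genes described here are those expressed in RAW264.7 cells, a mouse macrophage line. Of 43432 genes in the count table, 394 have a symbol starting Slc, and 168 of these had a mean of at least 5 CPM (its count scaled by the library's total count) over all libraries. Leaving out Slc2a1, Slc2a6, Slc3a2, Slc7a1, Slc7a2, Slc7a5, Slc7a11, Slc11a1, Slc11a2, Slc16a3, Slc25a20, Slc30a1, Slc39a1, Slc39a14 and Slc40a1, which were set aside by name, gave 153 members. The members were chosen by their symbol and their mean level over all 10 libraries, without the genes set aside by name. Another 226 Slc genes lay below the threshold and 53 of them had no count in any library.

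The series asked how compound **1**, an unsaturated keto fatty acid of marine origin, alters the transcriptome of macrophages given lipopolysaccharide (LPS), the bacterial cell wall component that activates Toll-like receptor 4. All 5 conditions contained RAW264.7 cells. The vehicle was 0.5% DMSO in the groups without **1**, and the DMSO content of the wells with **1** is not given in the sources used here. Resting cells received DMSO only, and the other 4 conditions received 1 µg/mL LPS for 12 h with DMSO or with **1** at 3.2, 10 or 32 µM, added 1 h before LPS. Each condition had 2 libraries, labelled as biological replicates 1 and 2. RAW264.7 is a single transformed line, so p-values measure the spread between these cultures only. No condition had **1** without LPS, so an effect of **1** on resting cells was not measured.

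In macrophages, activation is known to be accompanied by a change in nutrient, metal and ion transport. The families differ in mechanism. SLC1, SLC5, SLC6 and SLC28 proteins couple uptake to the sodium gradient, SLC2 and SLC29 proteins let their substrate run down its gradient, most SLC25 proteins span the inner mitochondrial membrane, and SLC30 and SLC39 proteins move zinc out of and into the cytosol. A transcript level does not give transport activity, and no uptake was measured here.

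Library totals were between 45966803 and 58976377 counts, so a gene at 5 CPM had at least 230 counts and a counting error of at most 6.60%. Counts between replicates of each condition differed by more than sampling noise, with a chi-square per degree of freedom between 3.78 and 259. The highest value was that of 32 µM and includes Gm42418, described below, which had 68528 and 1161205 counts there. All 10 macrophage markers checked had counts in every library. Replicate 1 at 10 µM stood apart: 4 epithelial markers (Epcam, Krt8, Krt18 and Cdh1) summed to 1777 counts and 5 fibroblast markers to 366 counts, where the libraries without **1** had at most 5 and 13 counts. Replicate 1 at 3.2 µM showed the same genes at lower counts (268 and 61). Replicate 2 at 32 µM had 2.46% of its counts in Gm42418, a non-coding gene over ribosomal RNA, against at most 0.207% in the other libraries. Results at these doses are therefore also given without those libraries, and the part of these signals in any result was not tested.

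The members held 1.52% and 1.55% of the counts in resting cells and between 1.32% and 1.37% in the libraries with LPS. On the CPM scale used from here on, which is scaled between libraries by trimmed mean of M-values (TMM), the sum over 153 genes ran from 13610 CPM in a resting library to 13922 CPM in a DMSO + LPS library. In 148 members the mean was at least 5 unscaled CPM in every condition. The other 5 passed through some conditions only. Slc22a4, Slc28a2 and Slc39a7 were lowest in resting cells, at 4.77, 3.32 and 2.81 unscaled CPM, and Slc41a3 and Slc8a1 were at or above the threshold in resting cells only. The choice of members thus bears on the direction in which these 5 moved with LPS. The members closest above the threshold were Slc8a1 at 5.05 and Slc41a3 at 5.26 CPM, and the genes closest below it were Slc26a11 at 4.62 and Slc17a6 at 4.56 CPM.

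The members fell into 13 transport classes and 3 genes that are not transporters. The largest were 31 carriers of the mitochondrial family, which includes Slc25a17 of peroxisomes and Slc25a46 of the outer mitochondrial membrane, 21 carriers of amino acids, amines and osmolytes, 21 carriers of nucleotide sugars and related Golgi and ER substrates, 19 carriers of inorganic ions and protons and 13 zinc carriers. Smaller classes held 10 carriers of sugars and polyols, 7 of organic anions and cations, 6 each for vitamins, for fatty acids and choline, and for iron, copper, magnesium and heme, 4 each for monocarboxylates and nucleosides, and 2 for peptides. The products of Slc9a3r1 (a PDZ scaffold), Slc4a1ap and Slc7a6os are not transporters and keep an Slc symbol only for a partner or neighbour.

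Levels between genes were compared per kilobase of merged exons, since longer transcripts collect more reads. The means are over 2 resting libraries and 8 with LPS. The highest was Slc25a5, the ADP/ATP carrier ANT2, at 383 CPM per kb. Slc6a12, the betaine and GABA transporter BGT1, followed with 183 CPM per kb. The organic anion transporter Slco4a1 had 106, the lysosomal heme transporter Slc48a1 101, the mitochondrial phosphate carrier Slc25a3 93.4, the other ADP/ATP carrier Slc25a4 86.0, the glutamine transporter Slc1a5 85.7 and the lysosomal peptide and histidine transporter Slc15a3 83.3 CPM per kb. Slc15a3 reached this place through the libraries with LPS, with 10.1 CPM per kb in resting cells and 125 CPM per kb in DMSO + LPS. The places of others also varied by condition. Slc48a1 had 66.5 CPM per kb in resting cells, where Slco4a1 had 145, and 145 at 32 µM, where Slco4a1 had 95.2. The neighbours from Slco4a1 to Slc15a3 lie within a narrow range and their order was not tested. Slc25a5 has processed copies in the genome, and how the counting shared reads between copies is not given in the sources used here. The lowest member was Slc8a1, the sodium/calcium exchanger NCX1, at 0.260 CPM per kb. Slc25a5 was steady across conditions, with 682 and 642 CPM in resting cells, 618 and 622 CPM in DMSO + LPS and 622 and 603 CPM at 32 µM. Slc6a12 had 518 and 518 CPM at rest and 568 and 527 CPM with LPS, and Slc27a1, a fatty acid transport protein, had 429 and 435 against 476 and 489 CPM.

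**Figure D1:**
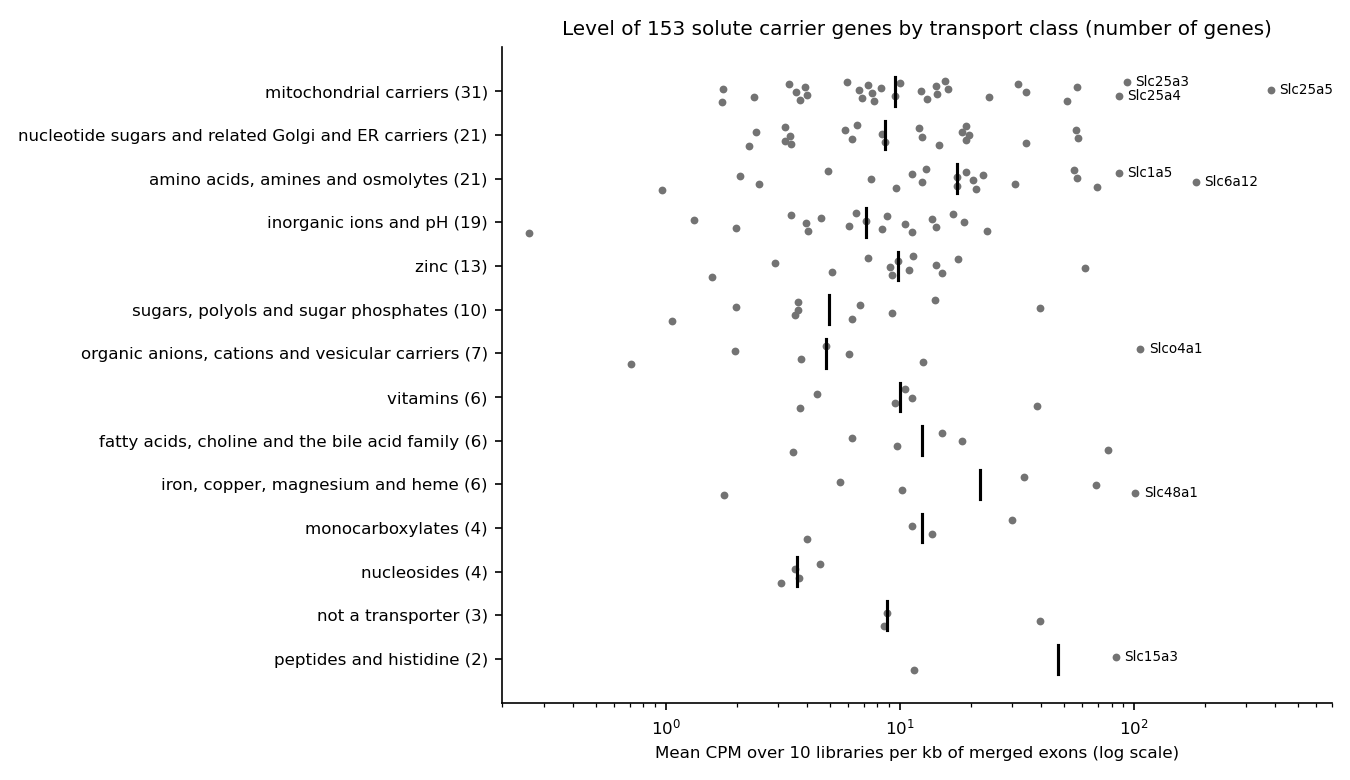
Mean level of each of 153 members over 10 libraries, in CPM per kilobase of merged exons on a log axis, by transport class. Each point is a gene, the bar is the class median, and the 8 highest genes are named. Slc25a5 lies at 383 CPM per kb, above every other member.

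Comparing DMSO + LPS with DMSO asked which carriers responded to the activation of the macrophages. Among the 153 members the largest increases were in carriers of peptides, purine nucleosides, copper and serotonin. The largest decreases among them were in carriers of creatine, large neutral amino acids and myo-inositol. A gene was called when it differed at least 1.5-fold with an adjusted p under 0.05 (edgeR quasi-likelihood test on all 10 libraries, Benjamini-Hochberg over 14172 genes). LPS raised 20 members and lowered 22, or 27.5% of them. Among all genes tested 14.6% were called higher and 13.6% lower, and among genes with a mean of at least 5 CPM 13.7% and 13.9%, so the members were called about as often as genes at large. The median log2 change was -0.04 over members and 0.00 over all genes. In all 42 called members both libraries of one condition lay above both of the other. The call itself favours this, and the share among all called genes was not counted. Among the 148 members at or above the threshold in every condition, 18 rose and 20 fell. The split depends on the scaling: with library size alone, which moves the members' median by -0.21 on the log2 scale, 15 members were higher and 35 lower.

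The largest increase was in Slc15a3, whose product exports histidine and short peptides, bacterial muramyl dipeptide among them, from the endolysosome. It had 53.8 and 56.7 CPM in resting cells and 673 and 696 CPM in DMSO + LPS, a log2 change of 3.63 ± 0.08 (SE, adjusted p = 1.61e-08). Slc15a4, the other member of this family, was not called (log2 change -0.14). Slc15a3 shares 28.1% of its exon bases with Tmem132a on the opposite strand, and strand use in the counting is not given in the sources used here. Tmem132a itself moved the same way, from 14.8 and 15.7 to 43.9 and 45.7 CPM unscaled.

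Slc28a2, the sodium-coupled purine nucleoside transporter CNT2, rose from 3.03 and 2.91 to 29.2 and 28.1 CPM (log2 change 3.27 ± 0.11, adjusted p = 1.44e-07), and passed the level threshold through the conditions with LPS only. Slc29a1, the equilibrative nucleoside transporter ENT1, fell from 25.7 and 21.7 to 12.1 and 12.1 CPM (-0.98 ± 0.18, adjusted p = 0.00227). Slc29a2, the equilibrative transporter ENT2, had 9.51 and 9.21 CPM at rest and 8.63 and 8.50 CPM with LPS and was not called (-0.13 ± 0.07, adjusted p = 0.182). Per kilobase, Slc28a2 had a mean of 0.705 CPM per kb at rest and 6.81 CPM per kb with LPS, and Slc29a1 had 5.92 and 3.01 CPM per kb. Slc29a3 of the lysosome had 31.4 and 34.6 CPM at rest and 24.4 and 21.4 CPM with LPS, below the 1.5-fold cutoff.

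Both copper carriers rose. Slc31a2 (CTR2) went from 21.3 and 22.3 to 184 and 185 CPM, a log2 change of 3.08 ± 0.05 (adjusted p = 2.78e-09). Slc31a1 (CTR1), the high-affinity importer, went from 91.3 and 96.2 to 168 and 162 CPM, a log2 change of 0.82 ± 0.04. The replicates of both genes lay within a few percent of each other in DMSO + LPS. In the same class the magnesium carrier Slc41a3 fell by 0.89 on the log2 scale, and the heme transporter Slc48a1 had 187 and 179 against 235 and 235 CPM, a change of 0.36 that stayed below the fold cutoff. Among mitochondrial carriers the iron importer mitoferrin-1, Slc25a37, rose from 38.5 and 40.4 to 88.9 and 86.7 CPM (1.15 ± 0.04, adjusted p = 2.62e-07).

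Of 21 carriers of amino acids, amines and osmolytes, 3 rose and 2 fell, where 14.6% of all genes tested were called higher and 13.6% lower. Slc3a2, Slc7a1, Slc7a2, Slc7a5 and Slc7a11 were set aside by name and are not counted. Slc6a4, the serotonin transporter, rose from 5.51 and 4.79 to 43.8 and 39.8 CPM (3.02 ± 0.09, adjusted p = 9.22e-08). Slc7a7, the light chain of the cationic amino acid exchanger y+LAT1, rose from 9.81 and 9.48 to 19.2 and 19.2 CPM, and Slc6a13, the GABA and taurine transporter GAT2, from 33.1 and 26.1 to 53.5 and 56.9 CPM. Slc43a2, the large neutral amino acid transporter LAT4, dropped from 412 and 421 to 128 and 126 CPM (-1.71 ± 0.05, adjusted p = 4.59e-08). The taurine transporter Slc6a6 dropped from 822 and 893 to 477 and 461 CPM (-0.87 ± 0.07). The sum over the class was 4042 and 4182 CPM at rest and 3597 and 3496 CPM with LPS.

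Among 19 ion carriers 4 rose and 2 fell, against 14.6% and 13.6% of all genes tested. Slc4a7, the sodium bicarbonate cotransporter NBCn1, rose from 71.9 and 83.6 to 264 and 243 CPM (1.70 ± 0.16, adjusted p = 4.39e-05). Slc12a4, which carries potassium and chloride out of the cell (KCC1), rose from 44.0 and 43.7 to 88.3 and 87.4 CPM, while Slc12a2, which carries sodium, potassium and chloride in (NKCC1), fell from 58.4 and 64.8 to 38.9 and 37.0 CPM. Slc20a1, the phosphate importer PiT-1, rose from 46.3 and 42.4 to 89.8 and 83.4 CPM, and its relative Slc20a2 was not called (log2 change -0.16). Of the sodium/calcium exchangers, Slc8b1 of mitochondria (NCLX) rose by 0.71 on the log2 scale. Slc8a1 of the plasma membrane fell from 9.61 and 10.3 to 3.75 and 3.71 CPM (-1.41 ± 0.20), and it is a member only through its level in resting cells.

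The 31 carriers of the mitochondrial family, without Slc25a20 set aside by name, held 4 that rose and 3 that fell. Of all genes tested 14.6% were called higher and 13.6% lower. Slc25a25, a calcium-regulated ATP-Mg/phosphate carrier, rose from 27.2 and 28.0 to 62.8 and 64.4 CPM. Both pyrimidine nucleotide carriers were called, Slc25a33 upward from 9.05 and 6.45 to 14.3 and 16.7 CPM and Slc25a36 downward from 46.5 and 57.1 to 27.4 and 27.8 CPM. The replicates of Slc25a33 were far apart, which gives it an SE of 0.29, and its call was lost without replicate 2 of DMSO or of DMSO + LPS. The glutamate carrier Slc25a22 rose by 0.60, close to the cutoff. Slc25a45 fell by 0.92 and the ornithine carrier Slc25a15 by 0.67.

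Of 10 sugar and polyol carriers 4 fell and 1 rose, where 13.6% of all genes tested were called lower and 14.6% higher. Slc2a1 and Slc2a6 were set aside by name and are not counted, so this does not describe sugar carriers in general. The myo-inositol transporter Slc5a3 dropped from 190 and 219 to 72.8 and 64.7 CPM (-1.57 ± 0.10, adjusted p = 6.15e-06), and the glucose transporter GLUT3, Slc2a3, dropped from 40.9 and 44.4 to 23.3 and 21.6 CPM. Slc2a9, known for urate transport, and Slc37a1, a sugar phosphate exchanger, fell by 0.69 and 0.79 on the log2 scale. Slc45a3 rose from 10.4 and 9.51 to 24.1 and 22.8 CPM (1.24 ± 0.07). Of 6 vitamin carriers 3 fell, against 13.6% of all genes tested. The thiamine transporter Slc19a2 fell from 59.3 and 61.7 to 33.3 and 30.3 CPM. The proton-coupled folate transporter Slc46a1 fell by 0.80 and the biotin and pantothenate transporter Slc5a6 by 0.63. The vitamin C transporter Slc23a2 had a mean of 256 ± 12.9 CPM at rest and 287 ± 9.71 CPM with LPS (SD, n = 2) and was not called.

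In the remaining classes, which lack Slc16a3, Slc30a1, Slc39a1 and Slc39a14 set aside by name, 1 or a few members changed. The creatine transporter MCT12, Slc16a12, showed the largest decrease of all members, from 39.2 and 41.2 to 8.47 and 7.58 CPM (-2.32 ± 0.14, adjusted p = 3.25e-06), whereas the lactate transporter MCT1, Slc16a1, had 157 and 173 CPM at rest and 131 and 132 CPM with LPS. The lysosomal sialic acid exporter sialin, Slc17a5, fell from 84.3 and 89.5 to 35.6 and 34.0 CPM, and the choline transporter Slc44a1 fell from 210 and 217 to 95.1 and 91.9 CPM. The ergothioneine transporter OCTN1, Slc22a4, rose from 4.08 and 4.44 to 13.8 and 14.7 CPM (1.74 ± 0.07). Among zinc carriers Slc30a6, which loads the Golgi, rose by 0.64 and Slc39a11 fell by 0.61. Among nucleotide sugar carriers, Slc35b1 of the ER and Slc35e4 rose by 0.66 and 0.67, while Slc35b2, which takes the sulfate donor PAPS into the Golgi, and Slc35e3 fell by 0.66 and 0.71. No non-transporter member was called. Several changes near the cutoff depend on the processing. With library size alone the calls of Slc25a22, Slc30a6, Slc35b1, Slc35e4 and Slc8b1 were lost, and leaving out 1 library of DMSO or DMSO + LPS lost Slc25a22, Slc25a33, Slc35b1 or Slc39a11.

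Slc39a7, an ER and Golgi zinc carrier, had a large fold that was not called (1.25 ± 1.23, adjusted p = 0.439). Its replicates disagreed, with 4.27 and 0.758 CPM in resting cells, 12.6 and 1.28 CPM at 32 µM and 20.1 and 2.21 CPM at 10 µM. It shares 80.7% of its exon bases with the readthrough gene Gm20427. With only the 4 libraries compared, it was the 1 member called at 3.2 µM.

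**Figure D2:**
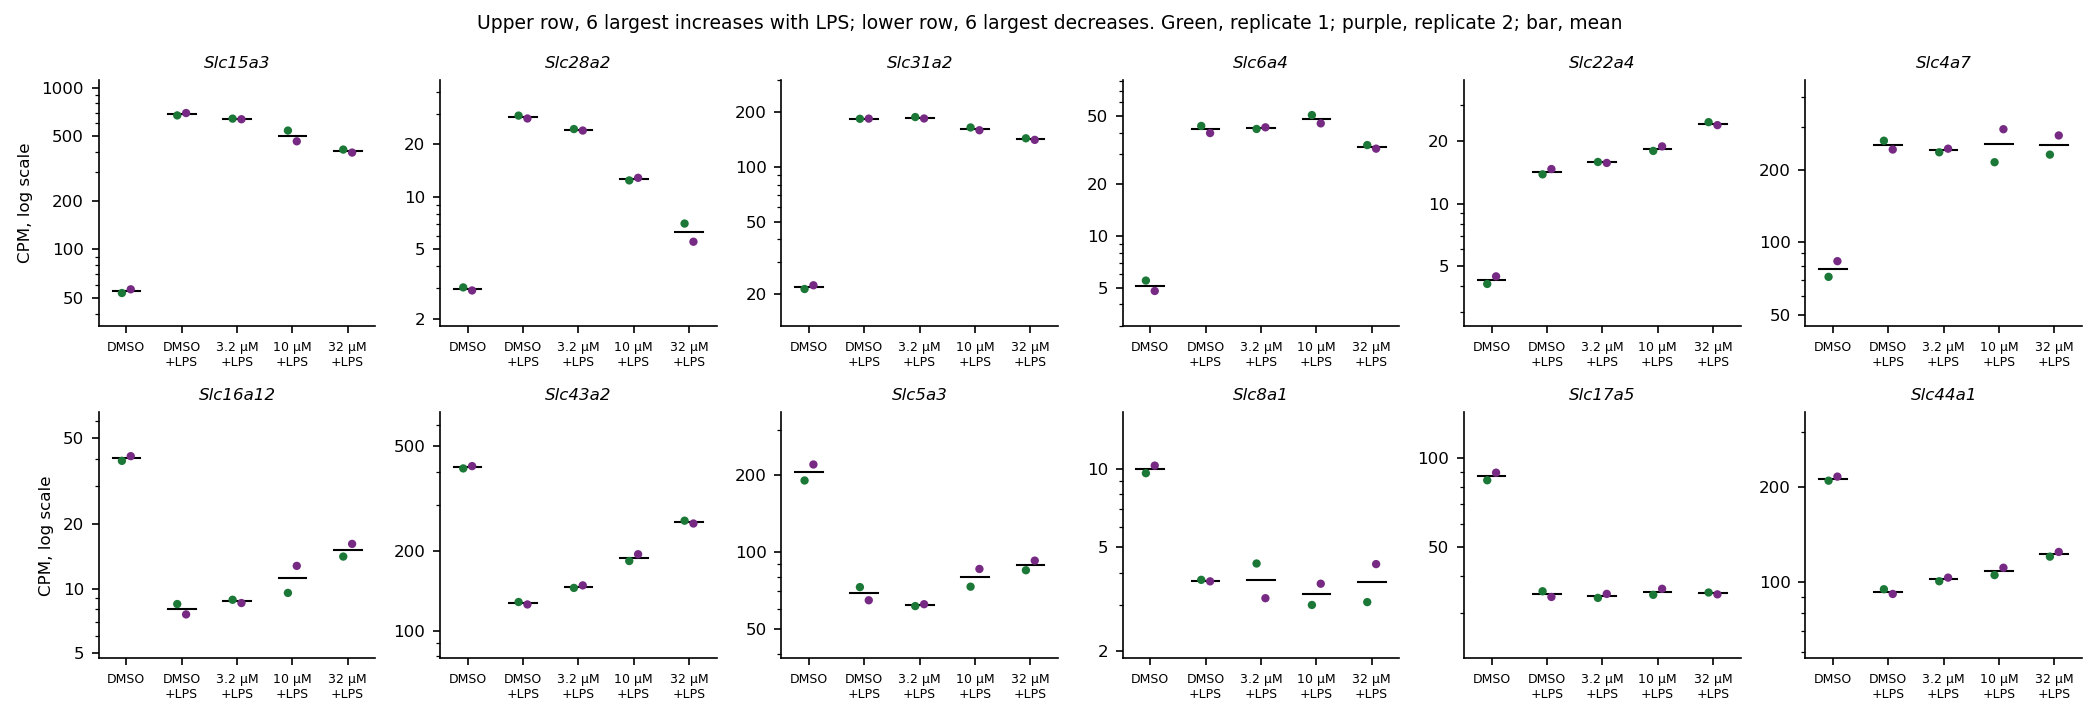
CPM per library on a log axis in 5 conditions for the 6 members with the largest increase with LPS (upper row) and the 6 with the largest decrease (lower row). Points are libraries and the bar is their mean. In each panel both resting libraries lie apart from both DMSO + LPS libraries, and at 32 µM Slc28a2, Slc15a3, Slc43a2 and Slc16a12 were called in the direction of the resting level and Slc22a4 away from it.

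Comparing **1** at 32 µM with DMSO, both with LPS, asked which carriers responded to the compound. At 32 µM 5 members rose and 2 fell, 4.58% of the 153. The background was 1.26% of all genes called higher and 2.91% lower, and 1.29% and 3.09% among genes with a mean of at least 5 CPM. The members' share is close to the background in sum. Among the 148 members at or above the threshold in every condition, 4 rose and 1 fell. DESeq2 called the same number, 5 higher and 2 lower. In 116 members, or 75.8%, the log2 change was under 0.2 in size, against 75.3% of genes with a mean of at least 5 CPM. For LPS this held for 51 members, or 33.3%, against 33.1%. At 32 µM 25 members had an adjusted p under 0.05 at any fold, the 7 called and 18 below the fold cutoff. Of genes with a mean of at least 5 CPM, 1.29% were called higher and 3.09% lower. Another 4.12% were higher and 4.14% lower at this adjusted p without a call. Leaving out replicate 2 at 32 µM, with its high Gm42418 share, left the 7 calls in place.

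**Figure D3:**
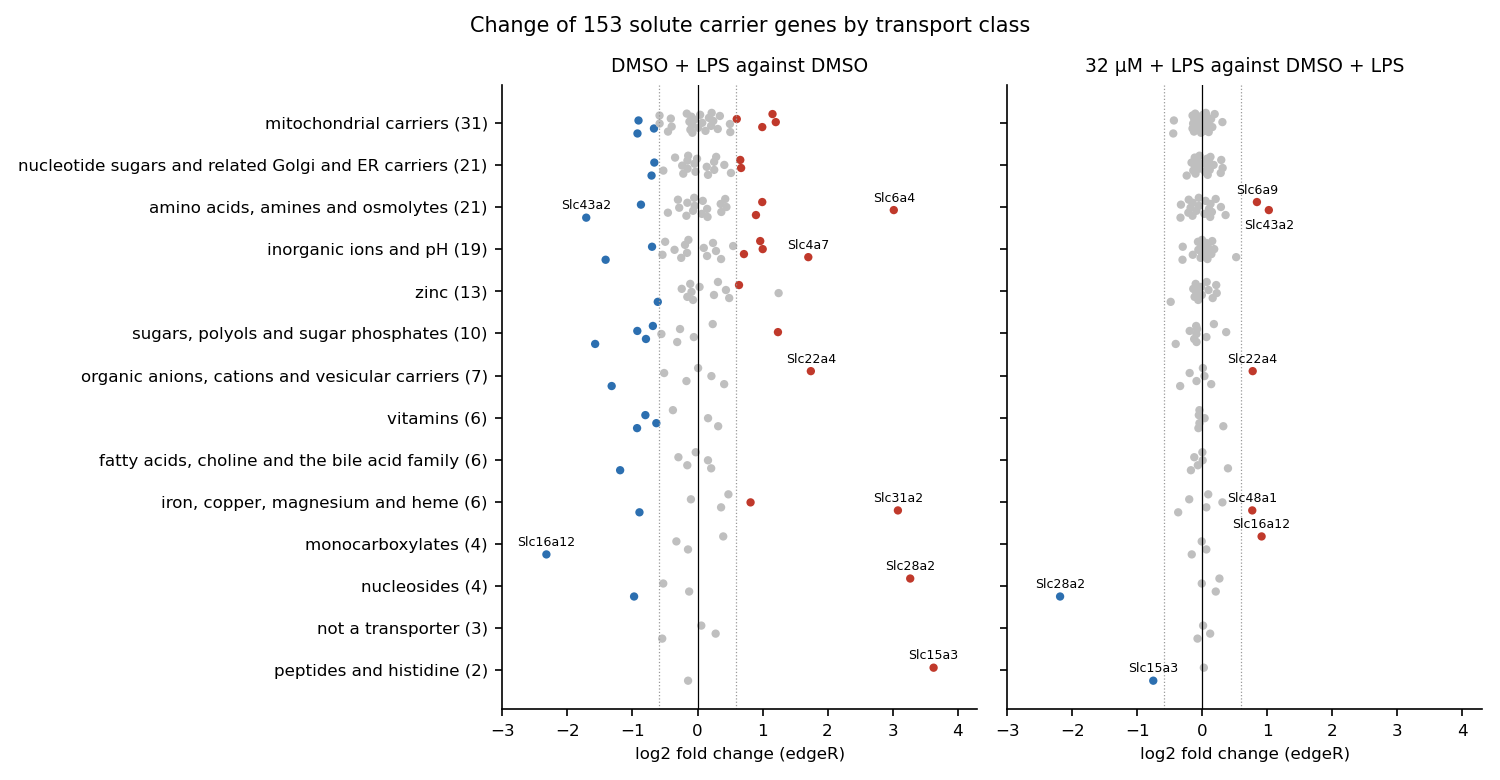
Log2 fold change of 153 members by transport class, for DMSO + LPS against DMSO (left) and 32 µM + LPS against DMSO + LPS (right). Red points were called higher, blue points lower and grey points were not called, and dotted lines mark 1.5-fold. LPS called 42 members across 13 classes and 32 µM called 7 members.

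Both comparisons use the DMSO + LPS libraries and are not independent. For that reason the values are given for each condition, and 32 µM was also compared with resting cells, which share no library with DMSO + LPS.

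Slc43a2 (chr11:75531694-75577575, + strand, in mm10) showed the largest increase with **1**. Its level was 128 and 126 CPM in DMSO + LPS and 261 and 255 CPM at 32 µM (1.02 ± 0.05, adjusted p = 7.91e-06), with 184 and 195 CPM at 10 µM and 145 and 149 CPM at 3.2 µM. The 8 libraries with LPS did not overlap between doses. At 32 µM it still lay below the 412 and 421 CPM of resting cells (-0.69 ± 0.05). At 10 µM the log2 change was 0.57 ± 0.05 (adjusted p = 0.00125), just under the fold cutoff, and it was called there without replicate 1 of 10 µM or of DMSO + LPS. Of its exon bases 9.18% are shared with Gm45606 on the opposite strand.

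Slc16a12 (chr19:34668403-34747289, - strand) also rose, from 8.47 and 7.58 to 14.1 and 16.1 CPM (0.91 ± 0.14, adjusted p = 0.00423). At 10 µM it had 9.54 and 12.7 CPM, and at 3.2 µM 8.87 and 8.56 CPM. It remained far below the 39.2 and 41.2 CPM of resting cells (-1.41 ± 0.13). The glycine transporter GLYT1, Slc6a9 (chr4:117834506-117875198, + strand), rose from 9.06 and 8.50 to 17.8 and 13.6 CPM (0.84 ± 0.13, adjusted p = 0.00592). Its resting libraries had 6.38 and 6.70 CPM, and the change with LPS alone was not called (0.43 ± 0.14). Of the exon bases of Slc6a9, 30.2% are shared with genes on the opposite strand whose level was at most 0.191 CPM. Without replicate 2 of DMSO + LPS both calls were lost, Slc16a12 with an adjusted p of 0.0531 and Slc6a9 with 0.0643.

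Slc48a1 (HRG1, chr15:97778520-97792692, + strand), which moves heme out of the lysosome, rose from 235 and 235 to 414 and 386 CPM at 32 µM (0.77 ± 0.05, adjusted p = 6.41e-05). It was at 331 and 316 CPM with 10 µM and 247 and 252 CPM with 3.2 µM. At 32 µM it was 1.13 log2 units above resting cells, where it had 187 and 179 CPM. Slc22a4 (chr11:53983123-54028090, - strand) rose from 13.8 and 14.7 to 24.8 and 24.0 CPM (0.77 ± 0.07, adjusted p = 2.02e-04), on top of its rise with LPS. Its libraries at 10 µM had 18.0 and 18.9 CPM and those at 3.2 µM 15.9 and 15.7 CPM, so that each dose lay above the one before it.

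Slc28a2 (chr2:122426477-122461137, + strand) was the member with the largest change at 32 µM. It fell from 29.2 and 28.1 CPM in DMSO + LPS to 7.03 and 5.53 CPM (-2.19 ± 0.11, adjusted p = 9.25e-06). At 10 µM it had 12.4 and 12.9 CPM (-1.18 ± 0.10, adjusted p = 0.0016) and at 3.2 µM 24.5 and 24.0 CPM. The doses did not overlap. Its level at 32 µM was still above the 3.03 and 2.91 CPM of resting cells (1.08 ± 0.11, adjusted p = 8.79e-05). Slc29a1 had 12.1 and 12.1 CPM in DMSO + LPS and 13.0 and 10.9 CPM at 32 µM, a log2 difference of -0.01 ± 0.18.

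Slc15a3 (chr19:10839727-10859362, + strand) fell from 673 and 696 to 414 and 396 CPM (-0.76 ± 0.07, adjusted p = 3.87e-04). It had 542 and 465 CPM at 10 µM and 642 and 637 CPM at 3.2 µM, and at 32 µM remained 2.88 ± 0.08 log2 units above resting cells. Tmem132a, on the other strand, had 28.0 and 25.5 CPM unscaled at 32 µM, lower than the 43.9 and 45.7 CPM of DMSO + LPS. The libraries are directional, but whether the counting used strand is not given. From these counts the reads of the overlap cannot be assigned to either gene.

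**Figure D4:**
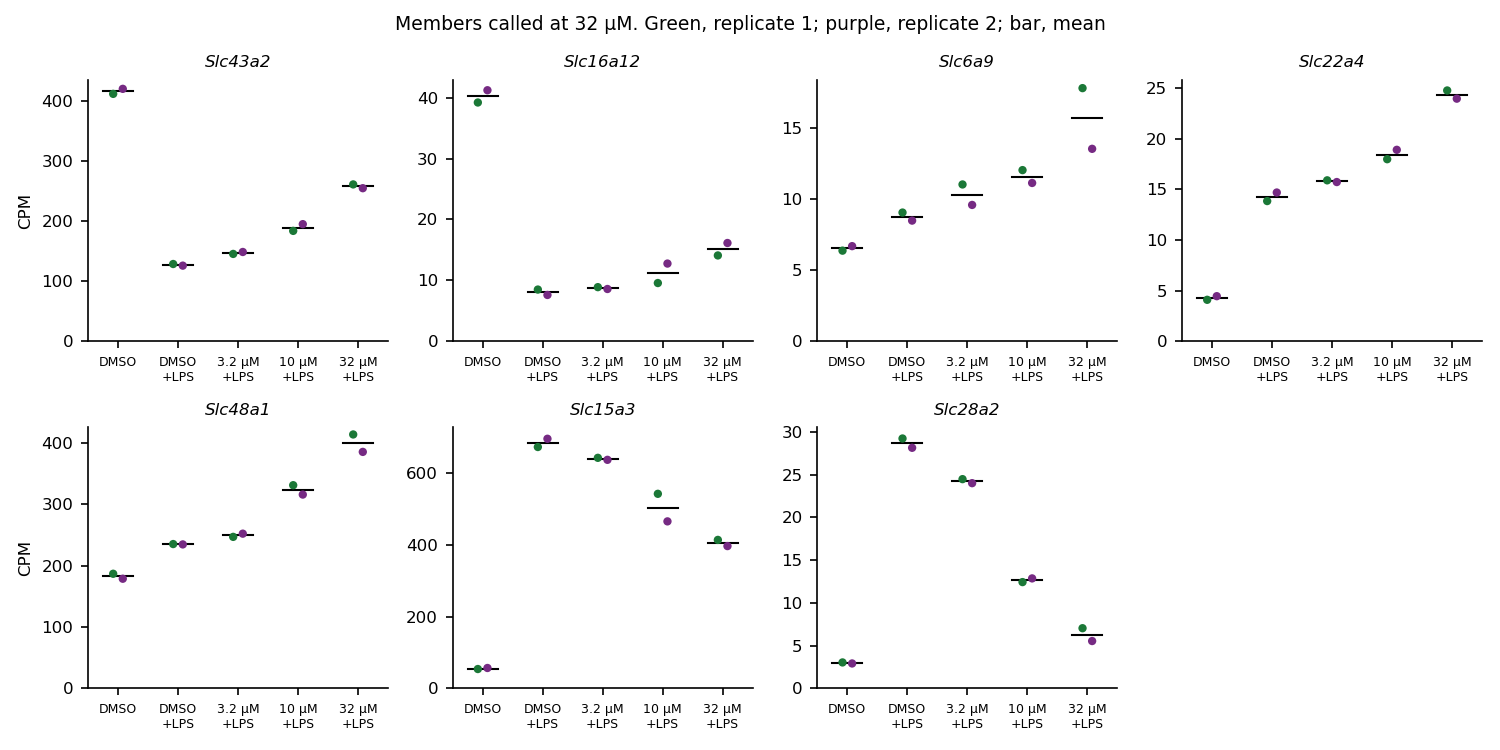
CPM per library, from 0, for the 7 members called at 32 µM, in resting cells, DMSO + LPS and 3 doses of **1** with LPS. Points are libraries and the bar is their mean. The 5 genes that rose and the 2 that fell have both 32 µM libraries beyond both DMSO + LPS libraries.

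Promoter sequence is shown for members that **1** changed, so that the letters beside the results can be read. The windows are RefSeq's, in build GRCm38.p6, and 120 members had at least 1. The members called at 32 µM had 8 windows. The 4 shown are those of Slc16a12, Slc22a4 and Slc28a2 and the first of 2 of Slc43a2. The second of Slc43a2 and the 3 of Slc6a9 lie inside these genes and are not printed, and Slc48a1 and Slc15a3 had no window in the table. Each sequence below holds the 250 bases before the start, on the gene's strand, 5′ to 3′, and capitals mark a match to any of 4 motifs searched on both strands.
Slc43a2, chr11:75531444-75531693, + strand: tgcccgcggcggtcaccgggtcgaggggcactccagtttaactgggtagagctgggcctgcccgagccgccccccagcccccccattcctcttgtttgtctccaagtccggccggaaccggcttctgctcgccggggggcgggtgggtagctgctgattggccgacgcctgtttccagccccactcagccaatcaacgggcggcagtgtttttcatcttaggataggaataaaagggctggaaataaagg
Slc16a12, chr19:34747329-34747578, - strand: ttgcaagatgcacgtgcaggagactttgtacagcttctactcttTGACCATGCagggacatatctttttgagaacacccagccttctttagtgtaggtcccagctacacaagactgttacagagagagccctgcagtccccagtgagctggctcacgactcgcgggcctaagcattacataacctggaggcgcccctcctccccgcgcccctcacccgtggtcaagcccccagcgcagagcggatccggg
Slc22a4, chr11:54028105-54028354, - strand: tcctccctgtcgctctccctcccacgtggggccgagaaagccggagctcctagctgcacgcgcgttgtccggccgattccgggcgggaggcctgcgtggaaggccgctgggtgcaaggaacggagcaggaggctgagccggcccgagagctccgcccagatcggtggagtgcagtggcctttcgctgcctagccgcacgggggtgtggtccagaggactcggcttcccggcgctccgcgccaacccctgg
Slc28a2, chr2:122426185-122426434, + strand: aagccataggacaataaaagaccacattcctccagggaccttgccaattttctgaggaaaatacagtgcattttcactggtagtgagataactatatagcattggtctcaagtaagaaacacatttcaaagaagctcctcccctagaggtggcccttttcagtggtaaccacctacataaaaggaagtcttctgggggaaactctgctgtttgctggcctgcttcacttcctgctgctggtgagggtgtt

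The motifs were TGACNNNGC (the core of the antioxidant response element, bound by Nrf2), TTTCNNTTT (the interferon-stimulated response element core), GGGANTTTC (kappaB) and TGATGNAA (the ATF4/CEBP composite element). Of the 4 windows printed only that of Slc16a12 had a match, to the antioxidant response element core. Among genes raised at 32 µM, 4 had windows, and 2 of these, Slc16a12 and Slc6a9, held that core in 3 of 7 windows. Among members called for LPS it was in 8 of 29 windows of those raised and in 4 of 31 windows of those lowered. It was present in 16.5% of the members' windows and 10.2% of all 32851 windows. The interferon-stimulated element was found in 4.71% of members' windows against 9.37% of all, kappaB in 1.76% against 0.941% and the ATF4/CEBP element in 1.76% against 3.45%. All windows include those of genes below the members' level threshold, so these differences cannot be read as particular to the carriers. A match is a stretch of letters and not a binding site, and motifs outside these windows were not searched.

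Another 18 members had an adjusted p under 0.05 at 32 µM without reaching 1.5-fold, 6 higher and 12 lower. Of the genes with a mean of at least 5 CPM, 4.12% did so upward and 4.14% downward. The zinc and manganese importer ZIP8, Slc39a8, was lower by -0.49 ± 0.09, with 13.1 and 12.7 CPM in DMSO + LPS and 8.71 and 9.73 CPM at 32 µM, and had 12.8 and 14.7 CPM at rest. The mitochondrial citrate carrier Slc25a1 was lower by -0.44 ± 0.07, with 73.6 and 79.6 against 59.9 and 53.2 CPM, and had 77.4 and 74.6 CPM at rest. Slc7a8, the neutral amino acid exchanger LAT2, was lower by -0.21 ± 0.05, with 94.7 and 90.4 against 80.8 and 79.1 CPM, and lay further from the 122 and 132 CPM of resting cells. These 3 were chosen after their values were seen. The copper carriers Slc31a2 and Slc31a1, raised by LPS, were lower at 32 µM by a log2 change of -0.37 ± 0.04 (144 and 141 CPM) and -0.20 ± 0.04 (142 and 145 CPM). Slc25a22 was lower by -0.45 ± 0.06 (adjusted p = 0.00333), with 52.5 and 51.8 CPM against 69.4 and 73.1 CPM. Slc44a1 and Slc6a6, lowered by LPS, were higher by 0.39 ± 0.05 (121 and 125 CPM) and 0.36 ± 0.07 (585 and 616 CPM). Slc31a2, Slc31a1, Slc25a22, Slc44a1 and Slc6a6 were not named here by a rule set beforehand. Both comparisons use the DMSO + LPS libraries, which favours opposite signs. Of the 18 members, 7 were called for LPS, and their directions were not tallied. Slc17a5, Slc4a7 and Slc25a25 lay close to their levels in DMSO + LPS. Slc17a5 had 35.2 and 34.7 CPM at 32 µM against 35.6 and 34.0 CPM without **1**, Slc4a7 231 and 278 against 264 and 243 CPM, and Slc25a25 66.1 and 60.9 against 62.8 and 64.4 CPM. For Slc17a5 the log2 difference was 0.01 ± 0.05.

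Against resting cells, 24 members were higher and 22 lower at 32 µM with LPS, where 13.8% of all genes were called higher and 13.3% lower. With library size alone the split was 13 higher and 37 lower. Of the 42 members called for LPS, 36 were also called here. The comparisons share the resting libraries, and the overlap among all genes called for LPS was not counted. The overlap is therefore given as a count only and is no result about the members. Slc6a4 remained at 33.9 and 32.3 CPM and Slc31a2 at 144 and 141 CPM, both over 2.6 log2 units above rest.

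At 10 µM Slc28a2 was the 1 member called, lower, where 0.282% of all genes were called higher and 0.579% lower. Slc28a2 passed the level threshold through the conditions with LPS only, and among the 148 members at or above it in every condition 0 were called higher and 0 lower by edgeR. DESeq2 also called 0 of the 153 members higher and 1 lower. At an unadjusted p under 0.05, 15 members were higher and 13 lower, where 12.1% of all genes passed that threshold. Slc15a3, Slc22a4, Slc48a1 and Slc43a2 had an adjusted p under 0.05 with a log2 change of -0.44, 0.37, 0.46 and 0.57. Without replicate 1 of 10 µM, the library with epithelial and fibroblast transcripts, Slc28a2 was still called and Slc16a12 and Slc43a2 were called higher. The members under 0.2 in size numbered 134, or 87.6%, against 86.3% of genes with a mean of at least 5 CPM.

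At 3.2 µM no member was called, and neither was any gene, since 0% of all genes were called higher and 0% lower with edgeR. DESeq2 called 0 members. With an unadjusted p under 0.05 there were 9 members, 4 higher and 5 lower, where 4.23% of all genes passed that threshold. The smallest p-values were those of Slc43a2, Slco4a1 and Slc37a2. Slc43a2 had a log2 change of 0.21 ± 0.05 (edgeR adjusted p = 0.695). Slco4a1 had 440 and 443 against 490 and 483 CPM (-0.14 ± 0.04), and Slc37a2, a sugar phosphate exchanger, had 270 and 270 against 248 and 243 CPM (0.14 ± 0.05). In 149 members, or 97.4%, the change was under 0.2 in size, against 93.5% of genes with a mean of at least 5 CPM.

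Comparing 32 with 10 µM, a test of the dose itself, called Slc28a2 lower (-1.01 ± 0.10, adjusted p = 0.00188) and no member higher, with 0.169% of all genes called higher and 1.15% lower. Among the 148 members at or above the level threshold in every condition edgeR called 0 higher and 0 lower. DESeq2 gave the same counts over the 153 members. At an unadjusted p under 0.05, 16 members were higher and 14 lower, where 12.5% of all genes passed. With only the 4 libraries of these doses in the fit, its adjusted p was 0.162. Slc43a2, Slc22a4 and Slc48a1 were higher at 32 than at 10 µM by 0.45, 0.40 and 0.30 on the log2 scale with an adjusted p under 0.05, below the fold cutoff. Slc37a2 was lower by -0.39 (218 and 211 against 287 and 275 CPM), and Slc6a4 by -0.54 (33.9 and 32.3 against 50.6 and 45.3 CPM).

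**Figure D5:**
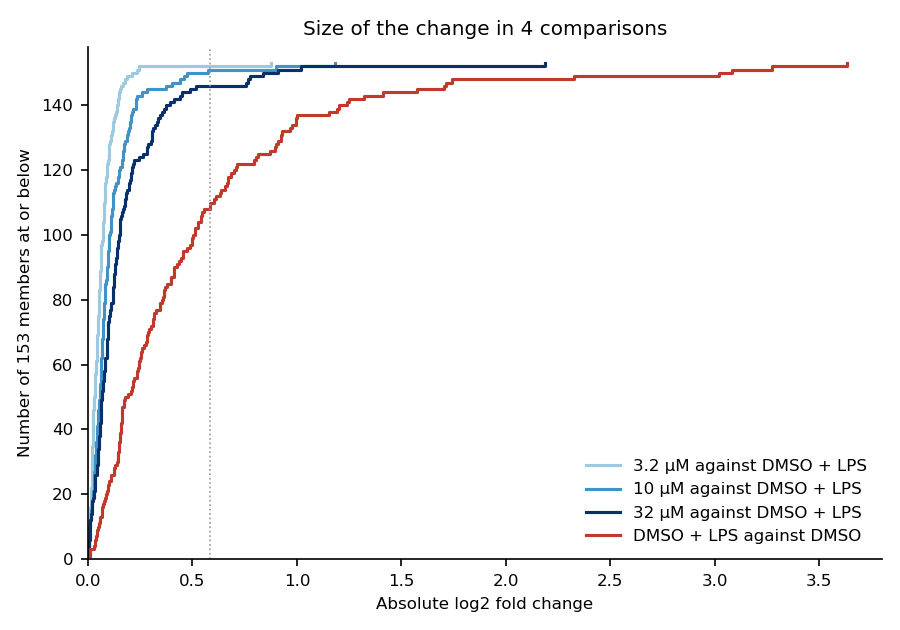
Number of 153 members whose absolute log2 fold change is at or below the value on the horizontal axis, for 3 doses of **1** against DMSO + LPS and for DMSO + LPS against DMSO. The dotted line marks 1.5-fold. Under 0.2 lie 149 members at 3.2 µM, 134 at 10 µM, 116 at 32 µM and 51 for LPS, or 97.4%, 87.6%, 75.8% and 33.3%. Of genes with a mean of at least 5 CPM, 93.5%, 86.3%, 75.3% and 33.1% lie there.

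Of 33 tested transporters and partners counted to the superfamily under other names, LPS raised 3 and lowered 4, where 14.6% and 13.6% of all genes tested were called. Mfsd2a, the lysophospholipid transporter, rose from 1.04 and 0.670 to 3.63 and 3.30 CPM (2.02 ± 0.20). The phosphate exporter Xpr1 fell from 155 and 177 to 87.4 and 80.5 CPM (-0.98 ± 0.10), whereas the importer Slc20a1 rose. The lysosomal cystine exporter Ctns fell by 0.69 and the lysosomal cationic amino acid exporter Pqlc2 rose by 0.78. The mitochondrial carrier Ucp2 fell by 0.73, Mfsd12 by 0.59, and Cln3 rose by 0.59. None was called at 32, 10 or 3.2 µM by edgeR, where 5, 2 and 2 of the 33 had an unadjusted p under 0.05, against 22.2%, 12.1% and 4.23% of all genes. The median log2 change at 32 µM was -0.02, against -0.01 over the members.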

How the data were processed

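RAW264.7 RNA was sequenced by the authors as directional poly(A) libraries on a NovaSeq. The deposited table holds raw counts per Ensembl gene for 10 libraries. The submitters' processing notes name Trimmomatic, FastQC, STAR, DESeq2 and build mm10. The counting tool, annotation and use of strand are not given in the sources used here. Symbols came from a gene name table, and coordinates and exon lengths from GENCODE vM21. Genes were filtered with filterByExpr (minimum count 10), scaled by TMM and tested with edgeR 4.0.16 (quasi-likelihood, Benjamini-Hochberg) in R 4.3.3, with 1 mean per condition over 10 libraries and 5 residual degrees of freedom. A call needed a 1.5-fold change and an adjusted p under 0.05. An exact permutation test of 2 against 2 libraries cannot go below 0.333. On simulated data for 32 µM (13841 genes), 100 of 100 genes changed by 2 on the log2 scale and 79 of 100 changed by 0.8775 were recovered, with 10 false calls. The simulation used the same dispersion for every gene and DMSO + LPS means in all conditions, and changed only genes at 5 CPM or more. The real spread differs between genes and libraries, so these figures do not give the recovery or false calls in the real data. Promoter windows were RefSeq's. For 117 of 170 member windows, 30 bases after the start occurred in a GENCODE transcript of that gene. Named members were the extremes of each comparison, the highest levels and those beside the threshold, and the remaining called members were named with their class after their values were seen. Members and lists were chosen with earlier results of these data known. Alternatives were other scaling, filters, DESeq2 1.42.0, a replicate block, a short-transcript covariate and leaving out each library.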

Additional observations from a re-analysis of the deposited data

How the results depend on the processing

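With library size alone in place of TMM, LPS lowered 35 members and raised 15, and 32 µM against resting cells gave 13 higher and 37 lower, and 1 member was called higher at 10 µM. With only the 4 libraries compared in the fit, 1 member (Slc39a7) was called higher at 3.2 µM and 0 were called lower for 32 against 10 µM. When each library was left out in turn, a lone library being taken to vary like the other conditions, members called higher ranged from 18 to 20 for LPS, 3 to 6 at 32 µM, 0 to 2 at 10 µM, 0 to 0 at 3.2 µM, 0 to 1 for 32 against 10 µM and 21 to 24 against rest. Members called lower ranged from 22 to 28, 2 to 2, 1 to 1, 0 to 0, 1 to 2 and 21 to 24 in the same order. The lowest count at 32 µM, 3, came without replicate 2 of DMSO + LPS, and the highest for 32 against 10 µM without replicate 2 of 10 µM, which added Slc16a12 and Slc6a4. The causes were not tested. For the other settings every count stayed within 1.5 times the one reported. The members followed singly (the largest changes, those called for LPS and the 7 called at 32 µM) kept their direction in all 1387 repeats and their side of the thresholds in 1366. In 17 a call was lost, 14 of these for LPS, and in 4 a call was gained, at 10 µM for Slc43a2 and Slc16a12. The repeats follow each member only in the comparisons for which it was listed. Calls were also gained elsewhere in some settings, such as Slc39a7 at 3.2 µM and Slc16a12 and Slc6a4 for 32 against 10 µM. A covariate for short transcripts lost Slc25a22, Slc35b1 and Slc35e3 for LPS.

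Replicate numbers were not shown to pair the samples. Deviations of replicates correlated between 0.39 and 0.85 among DMSO, 3.2, 10 and 32 µM, but those of DMSO + LPS correlated between -0.43 and -0.21 with the others. With a replicate block, members called higher numbered 20 (LPS), 5 (32 µM), 0 (10 µM), 0 (3.2 µM), 0 (32 against 10 µM) and 24 (32 µM against rest), and members called lower 22, 2, 1, 0, 1 and 22, as without it. A block with the numbers of DMSO + LPS exchanged, chosen after seeing the data, gave the same counts. With 2 libraries a condition, changes under 1.5-fold are poorly resolved for members whose replicates differ, such as Slc39a7. The lowest count of a member in 1 library was 43, in Slc39a7.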
